A study of Homo sapiens with 6 samples.

Results

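DUOX2, DUOXA1 and SLC26A4 are genes of the machinery with which thyroid follicular cells supply hydrogen peroxide and iodide for hormone synthesis. They were taken by symbol, as 3 of the 986 genes in the authors' deposited table. The table compares K1, an established cell line from a human papillary thyroid carcinoma, grown in DMEM with 10% FBS, in 2 groups: 3 control libraries and 3 libraries made after transfection of an sgRNA that targets miR-31, called miR-31 KO here. No label says what the control cells received beyond "control", or whether the KO cells were a single clone or a mixed population. Every library was bulk RNA, in which fewer cells of a type and less RNA per cell cannot be told apart.

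In the thyroid, the dual oxidases DUOX1 and DUOX2 make hydrogen peroxide at the apical membrane, and each needs a partner, the maturation factor DUOXA1 or DUOXA2, to leave the endoplasmic reticulum. This peroxide is consumed when iodide is attached to thyroglobulin. SLC26A4 encodes pendrin, an exchanger of chloride, iodide and bicarbonate at the same membrane. Inherited loss of DUOX2 function causes congenital hypothyroidism, and loss of SLC26A4 function causes Pendred syndrome, with deafness and goitre.

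All 3 genes were lower in miR-31 KO. In the authors' deposited table DUOXA1 fell the most, with a log2 fold change of -5.06, DUOX2 fell by 2.59 and SLC26A4 fell by 1.19 on that scale. Genes lower in KO made up 39.9% of the table, and 2.34% of the 16806 genes the authors tested were listed as lower. The table holds only genes with an adjusted p under 0.05 and a log2 fold change of at least 1 in size, so being listed already implied a change. DUOXA1 was near 0 in all KO libraries, SLC26A4 was reduced to less than its control range but stayed measurable in all KO libraries, and DUOX2 was listed at 0 in 2 KO libraries and detected in the third.

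The starts of these genes are shown because DUOX2 and DUOXA1 sit in a single cluster with their partners, while SLC26A4 lies on another chromosome. On chromosome 15 (GRCh38, GENCODE release 29), DUOX2 (ENSG00000140279.12) spans 45092650 to 45114344 and DUOXA1 (ENSG00000140254.12) spans 45117367 to 45129938, both on the minus strand, 3023 bp apart. DUOXA2 (45114321 to 45118421) and DUOX1 (45129933 to 45165576) lie on the plus strand of the same 72927 bp cluster. SLC26A4 (ENSG00000091137.12) spans 107660635 to 107717809 on the plus strand of chromosome 7. RefSeq windows (GRCh38.p14) of 250 bases before to 50 after the RefSeq gene start follow, 5′ to 3′ on the gene's own strand. The RefSeq starts lie inside the GENCODE spans and differ from their ends. The windows are chr15:45114123-45114422 for DUOX2, chr15:45129830-45130129 for DUOXA1 and chr7:107660578-107660877 for SLC26A4. Capitals mark the 2 motifs that were found, TATAAA (the TATA box) and GGGCGG (the GC box of SP1 family factors), on either strand, so that TATAAA on the opposite strand reads TTTATA.
DUOX2: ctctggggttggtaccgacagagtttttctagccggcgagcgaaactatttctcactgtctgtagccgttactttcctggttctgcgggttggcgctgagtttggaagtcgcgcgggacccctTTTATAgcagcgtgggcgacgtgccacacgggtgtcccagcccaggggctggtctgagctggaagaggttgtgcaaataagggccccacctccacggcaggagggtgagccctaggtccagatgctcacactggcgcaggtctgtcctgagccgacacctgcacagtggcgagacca
DUOXA1: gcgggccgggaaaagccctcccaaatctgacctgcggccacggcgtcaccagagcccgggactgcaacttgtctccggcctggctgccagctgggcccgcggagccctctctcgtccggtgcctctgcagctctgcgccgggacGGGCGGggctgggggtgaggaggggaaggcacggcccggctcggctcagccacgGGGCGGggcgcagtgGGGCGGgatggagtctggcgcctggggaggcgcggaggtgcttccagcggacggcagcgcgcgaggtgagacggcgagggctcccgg
SLC26A4: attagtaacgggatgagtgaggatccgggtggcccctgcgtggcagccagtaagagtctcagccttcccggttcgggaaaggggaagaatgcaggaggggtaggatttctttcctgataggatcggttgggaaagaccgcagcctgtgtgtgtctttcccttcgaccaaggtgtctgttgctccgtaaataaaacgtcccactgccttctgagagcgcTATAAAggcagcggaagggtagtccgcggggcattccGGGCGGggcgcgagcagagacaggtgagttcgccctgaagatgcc

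In the RefSeq windows the DUOX2 start lay 154 bases from that of DUOXA2, and their windows shared 253 bases. The DUOXA1 start lay 115 bases from that of DUOX1, with 214 bases shared. By RefSeq starts, each of the 2 genes thus faces its neighbour across a short common start region. The GENCODE spans overlap there instead, by 24 bp for DUOX2 with DUOXA2 and by 6 bp for DUOXA1 with DUOX1. TATAAA began at position -32 from the RefSeq start of SLC26A4. That start lies downstream of the GENCODE start, and the motif is inside the GENCODE span. TATAAA was also on the opposite strand of the DUOX2 window, the strand of DUOXA2, at position -127 from the RefSeq start of DUOX2. GGGCGG occurred 3 times in the DUOXA1 window and 1 time in that of SLC26A4, at position 6 from its RefSeq start. Of all 35116 RefSeq windows of this length, 11.5% held TATAAA and 45.0% held GGGCGG. Neither motif was in the DUOXA1 window at chr15:45122994-45123293, at a second RefSeq start of that gene. The GC content was 60.3% for DUOX2, 75.3% for DUOXA1 and 57.7% for SLC26A4, where the median of all windows was 58.7%. None of 4 other motifs searched on both strands was found in any of the 4 windows. The CCAAT box was present in 34.6% of all windows, the AP-1 site TGACTCA in 4.95%, the NK2 homeobox factor core CAAGTG in 11.5% and the STAT site TTCNNNGAA in 7.66%. No motif of this set was in the windows of all 3 genes.

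**Figure D1:**
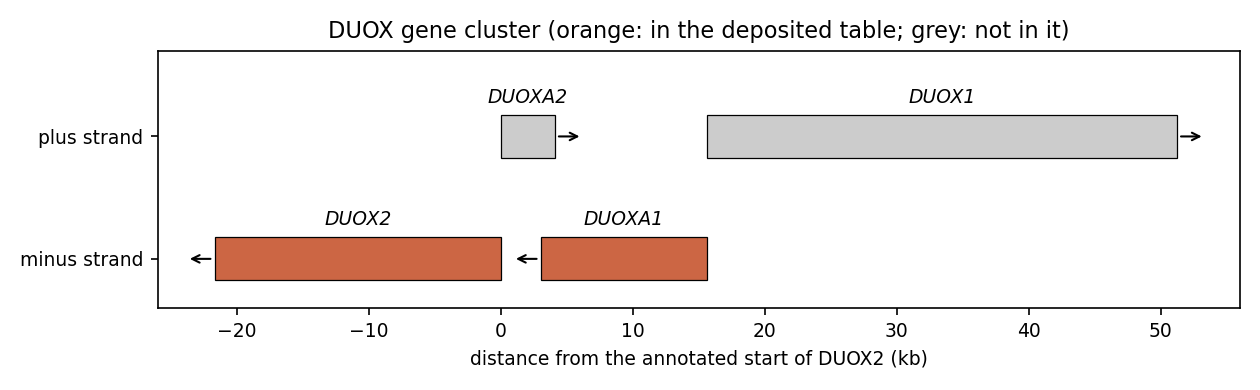
Map of the DUOX cluster, with distance from the annotated DUOX2 start in kb on the horizontal axis and the strand on the vertical axis. Bars are annotated gene spans, arrows give the direction of transcription, orange genes are in the deposited table and grey ones are not; the 2 listed genes are both on the minus strand, and each abuts a plus-strand partner at its start.

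The study targeted miR-31, whose mature strand is shown with its seed (bases 2 to 8) in capitals. MIR31 lies at 21512115 to 21512185 on chromosome 9, minus strand, and was not among the listed genes, so its own level was not analysed here and gave no check of the KO label.
hsa-miR-31-5p: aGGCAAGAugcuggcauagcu
The longest annotated 3′ UTRs of DUOX2 (1500 bases) and DUOXA1 (1732 bases) each held 1 seed match, and that of SLC26A4 (2363 bases) held none. The matches are shown because transcripts with sites for a microRNA are the ones it can repress directly. DUOX2, DUOXA1 and SLC26A4 were lower in KO, and whether miR-31 acts on any of them directly was not tested. For DUOX2 the match pairs with seed bases 2 to 8, and for DUOXA1 with bases 2 to 7 followed by an A (capitals).
DUOX2, chr15:45093190-45093219, minus strand: cactgaaagtcTCTTGCCccaggaaacccc
DUOXA1, chr15:45118497-45118526, minus strand: agattgcaagaCTTGCCAagaatcttggga
Such a match was present in 16.7% of 2558 genes with a 3′ UTR within 20% of the DUOX2 length, and in 22.0% of 2563 genes and 28.6% of 2412 genes for the DUOXA1 and SLC26A4 lengths. A match is a run of letters and not a measured site.

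DUOX2, the oxidase itself, was the least abundant of the 3 in control cells and the most uneven. It had 16.4, 16.0 and 38.4 normalized counts (read counts scaled between libraries by the authors) in control replicates 1, 2 and 3. Its values in miR-31 KO were 11.4 in replicate 1 and 0 in replicates 2 and 3. The groups did not overlap, but the lowest control was only 1.402 times the highest KO library. Control replicate 3 stood apart from the other controls, at 2.397 times the lowest, and KO replicate 1 stood apart from the other KO libraries. The means were 23.6 ± 12.8 and 3.81 ± 6.60 (SD, n = 3), a ratio of control to KO of 6.20 over the group means. The authors' deposited table gave an adjusted p of 0.0479 for DUOX2, rank 971 of 986 in the table. A limma refit of the listed genes on log2(value + 1) gave a p of 0.0103 before adjustment, where the deposited p was 0.00979. The refit ranked only the listed genes among the 16806 tested, and its adjusted p was 0.221, so that the call was lost. Single libraries moved the size of the fall. The limma log2 fold change of -3.29 became -4.50 without KO replicate 1, with an adjusted p of 0.0349. It became -2.69 without KO replicate 2 or without replicate 3, with limma p-values of 0.0525 and 0.0528 before adjustment. The adjusted p-values there were 0.996 and 0.952.

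DUOXA1, the factor that brings dual oxidases out of the endoplasmic reticulum, showed the widest separation. Control replicates 1, 2 and 3 had 30.6, 63.1 and 47.2 normalized counts, and KO replicates 1, 2 and 3 had 1.28, 1.74 and 0.835. The lowest control was 17.6 times the highest KO library, and the ratio of the group means was 36.6. Control replicate 1 was the lowest of its group, while the KO libraries were all near the lower end of measurement. By size of log2 fold change DUOXA1 was rank 18 of the 393 lower genes, whose median was -1.61. Its adjusted p was 3.36e-13 in the authors' deposited table and 0.00226 in the limma refit. DUOXA1 was past the threshold in all 11 limma refits that could be run for it.

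SLC26A4, the anion exchanger, fell in a graded way. Control replicates 1, 2 and 3 had 53.3, 82.2 and 77.7 normalized counts, against 25.5, 31.0 and 36.8 in KO replicates 1, 2 and 3. The groups did not overlap, with the lowest control 1.448 times the highest KO library. Spread within a group was the smallest of the 3 genes, with a coefficient of variation of 21.8% in control and 18.2% in KO. The ratio of control to KO means was 2.28, and SLC26A4 was rank 305 of the 393 lower genes by size of log2 fold change. The authors' deposited table gave an adjusted p of 0.00305, whereas the limma refit gave a log2 fold change of -1.16 ± 0.308 (SE) with an adjusted p of 0.143. The direction was unchanged and the call was lost. Before adjustment the p-values were 0.000344 in the authors' deposited table and 0.00573 in the limma refit.

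**Figure D2:**
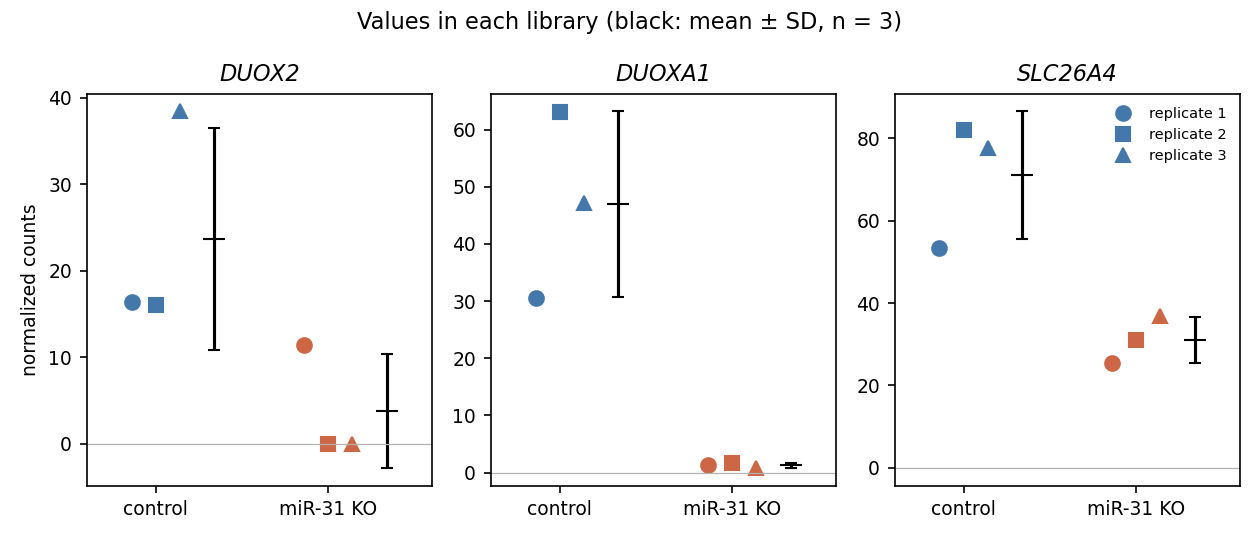
Normalized counts (vertical axis, a separate linear scale for each gene) of DUOX2, DUOXA1 and SLC26A4 in control (blue) and miR-31 KO (orange) libraries, with a symbol for each replicate number and black bars for mean ± SD, n = 3. The groups do not overlap for any of the 3 genes, the DUOXA1 KO values lie between 0.835 and 1.74, and DUOX2 is at 0 in KO replicates 2 and 3.

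The ranges of control and KO values were separate for 3 of the 3 genes, which are all lower in KO. Every KO library lay below every control for 373 listed genes, 37.8% of all 986. As 393 of the 986 were listed as lower, separate ranges were usual for a listed lower gene. In the exact two-sided permutation test of log2(value + 1), 3 libraries against 3, each gene gave p = 0.1, the smallest value this design allows. The limma refit called 1 of the 3 genes, DUOXA1. It called 169 genes as lower, beside the 393 lower genes of the table, and these 169 were 17.1% of all listed genes. In the authors' deposited table DUOXA1 and SLC26A4, 2 of the 3, had an adjusted p under 0.01, as had 317 of the 393 lower genes. These 317 were 32.2% of all listed genes. DUOXA1 and DUOX2 had a log2 fold change of -2 or less, as had 130 of the 393 lower genes (13.2% of all listed genes). The shares given next for refits are also of all 986 listed genes, higher ones included. Refits with a pseudocount of 0.1, after quantile normalization and with the replicate block also called DUOXA1 alone of the 3, beside 15.2%, 28.6% and 16.5% of listed genes. Refits without control replicate 1, 2 or 3 called DUOXA1 alone, beside 15.7%, 5.68% and 5.88%, and so did those without KO replicate 2 or 3, beside 6.8% and 16.1%. Without KO replicate 1 both DUOXA1 and DUOX2 were called, beside 6.19% of listed genes. On the plot of group means the 3 genes lay at or below the middle of the table's range. Their means over 6 libraries exceeded those of 25.7%, 34.8% and 47.6% of listed genes for DUOX2, DUOXA1 and SLC26A4.

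**Figure D3:**
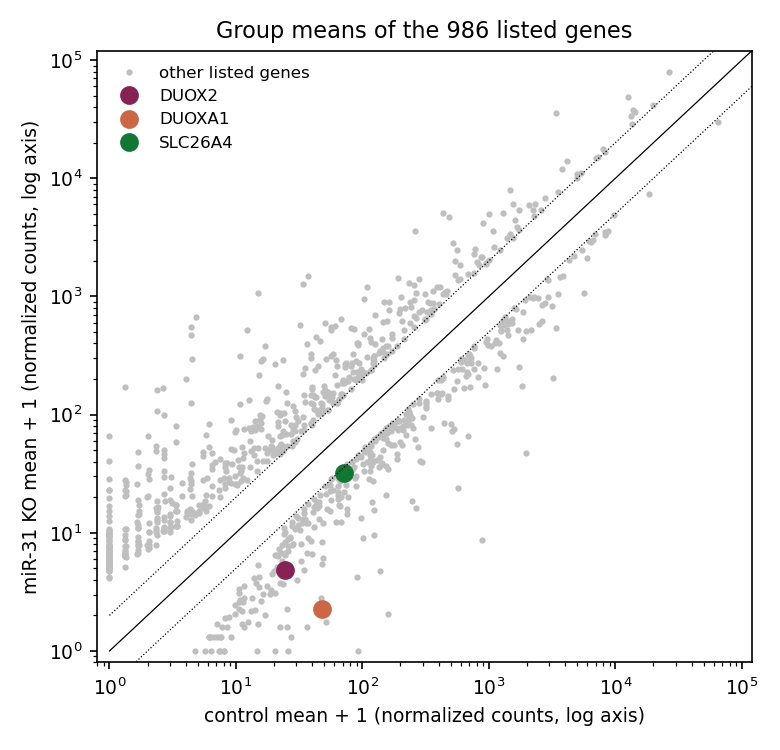
Mean of the 3 miR-31 KO libraries against mean of the 3 control libraries, each + 1 normalized count, on log axes, for all 986 listed genes (grey) with DUOX2, DUOXA1 and SLC26A4 coloured. The solid line marks equal values and the dotted lines a change of 2-fold; the band between the dotted lines is nearly empty because the table holds only selected genes, and DUOXA1 lies farthest below it of the 3.

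Levels of different genes were compared per kb of the longest annotated coding transcript (6533 bases for DUOX2, 2684 for DUOXA1 and 4930 for SLC26A4). In control cells DUOXA1 had 17.5 ± 6.05 normalized counts per kb, SLC26A4 had 14.4 ± 3.15 and DUOX2 had 3.62 ± 1.96. The spreads of DUOXA1 and SLC26A4 over libraries overlapped. Within each control library DUOXA1 was the higher of these, with 11.4, 23.5 and 17.6 against 10.8, 16.7 and 15.8 in replicates 1, 2 and 3. In each control library DUOX2 had the lowest level per kb. In KO cells the order changed: SLC26A4 had 6.31 ± 1.15 normalized counts per kb, DUOX2 had 0.584 ± 1.01 and DUOXA1 had 0.479 ± 0.169. SLC26A4 was thus the highest of the 3 in every KO library, and the levels of DUOX2 and DUOXA1 there did not differ beyond their spread. The transcript that K1 cells use was not determined, and other lengths would shift these levels.

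Overlapping annotation limits how reads can be assigned, since no source used here says whether counting used strand. The 3′ part of DUOXA1 overlaps DUOXA2 on the opposite strand over 1055 bp, from 45117367 to 45118421. DUOX2 overlaps DUOXA2 by 24 bp at the start, and DUOXA1 overlaps DUOX1 by 6 bp. The first 1517 bp of SLC26A4, from 107660635 to 107662151, lie within SLC26A4-AS1 on the opposite strand. Reads in these stretches cannot be told apart without strand, and DUOX2 also shares long similar coding stretches with its paralog DUOX1. DUOXA2, DUOX1 and SLC26A4-AS1 are not in the table and were not analysed here.

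Of 22 other protein-coding genes within 1 Mb of each DUOX gene, 1 was listed, which was the other DUOX gene. Within 1 Mb of SLC26A4, 2 of 17 were listed, and they went in opposite directions. LAMB4, a laminin chain gene 305739 bp away, had 25.8, 16.0 and 20.6 normalized counts in control and 4.01, 8.75 and 6.07 in KO replicates 1, 2 and 3. PIK3CG, a lipid kinase gene 753490 bp away, had 13.0, 7.02 and 19.7 in control and 95.2, 61.6 and 64.2 in KO. Neither LAMB4 nor PIK3CG overlapped between groups. In the direction of LAMB4, every KO library lay below every control for 373 listed genes (37.8% of 986), where 393 were listed as lower. The share with every KO library above every control, the direction of PIK3CG, was not computed. The limma refit called PIK3CG (adjusted p = 0.0229) but not LAMB4 (0.142). Of all genes the authors tested, 2.34% were listed as lower and 3.53% as higher. On the whole of chromosome 15, 8 of 34 listed genes were lower, the DUOX pair included, and on chromosome 7, 29 of 55 were lower. Of all listed genes 39.9% were lower.

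The rest of the thyroid machinery was largely outside the table. Of 23 genes of thyroid hormone synthesis, these 3 were listed, all lower. Among listed genes 39.9% were lower, and 2.34% of all genes the authors tested were listed as lower. The 3 are the genes picked for this report, so their median log2 fold change, -2.59, is that of DUOX2 and does not describe the pathway. The median over all listed genes was 1.27. Pathway genes outside the table include thyroglobulin, the TSH receptor and the iodide transporter SLC5A5. A gene outside the table cannot be called unchanged or absent. None of 5 markers of thyroid follicular epithelium (PAX8, NKX2-1, FOXE1, TG and TSHR) was listed, so the labelled cell type could not be checked against them. No gene was listed among 10 thyroid transcription and identity genes. SLC26A4 was the 1 listed gene of 11 SLC26 anion exchangers.

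Most genes of the table, 60.1%, were higher in KO, and 3.53% of all genes the authors tested were listed as higher. In the limma refit 28.2% of the listed genes were called as higher. Other listed genes of peroxide chemistry had this more common direction. Of 17 NADPH oxidase genes and partners, 4 were listed: DUOX2 and DUOXA1 as lower, and NOX3 and NOXA1 as higher. NOX3, the NADPH oxidase of the inner ear, had 62.5, 6.02 and 2.86 normalized counts in control and 228, 187 and 48.9 in KO replicates 1, 2 and 3, so its groups overlapped. NOXA1, an activator subunit of NADPH oxidases, had 4.26, 1.00 and 1.96 in control and 13.6, 14.8 and 6.71 in KO. Per the authors' deposited table NOX3 had a log2 fold change of 2.68 and NOXA1 of 2.23. The limma refit ended both calls, with adjusted p-values of 0.233 and 0.159; for NOX3 the log2 fold change was 3.43, and 4.63 without control replicate 1, with an adjusted p of 0.0180. Both genes were highest in replicate 1 among controls and lowest in replicate 3 among KO libraries, whereas DUOXA1 and SLC26A4 were lowest in replicate 1 among controls.

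Of 31 peroxide-removing and redox enzymes, 3 were listed, all in the direction of 60.1% of the table. PXDN, a peroxidase of the extracellular matrix, had 3416, 2434 and 2521 normalized counts in control and 7304, 7395 and 5573 in KO replicates 1, 2 and 3. SOD2, the mitochondrial enzyme that turns superoxide into hydrogen peroxide, had 21795, 9310 and 8492 in control and 42826, 43154 and 14601 in KO. The SOD2 groups overlapped, because control replicate 1 exceeded KO replicate 3. SRXN1, which repairs oxidized peroxiredoxins, was listed at 0 in all controls and had 6.21, 6.05 and 4.27 in KO. The authors' deposited table gave log2 fold changes of 1.28 for PXDN and 1.34 for SOD2. In the limma refit PXDN and SRXN1 kept their calls (adjusted p = 0.0185 and 0.0126) and SOD2 lost its call (adjusted p = 0.575); after quantile normalization the SOD2 log2 fold change was 0.34.

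Few other genes of anion and bicarbonate handling were listed. Of 34 SLC4 bicarbonate transporters and chloride channels, 2 were listed, the bestrophin anion channel genes BEST1 and BEST4, both higher. BEST1 had 99.8, 132 and 135 normalized counts in control and 283, 298 and 358 in KO replicates 1, 2 and 3. BEST4 had 5.56, 12.02 and 13.8 in control and 35.7, 23.9 and 25.1 in KO. Of 15 carbonic anhydrases, which interconvert carbon dioxide and bicarbonate, 3 were listed. CA2, the cytosolic form, was higher, with 170, 105 and 62.8 in control and 683, 677 and 231 in KO. CA9, the hypoxia-induced membrane form, was lower, with 25.8, 14.03 and 18.7 in control and 0.116, 5.40 and 0.786 in KO. CA7 was listed as lower with overlapping groups, 2.34, 19.03 and 4.89 in control against 2.35, 0 and 0.854 in KO. Of these 5 genes BEST1 kept its call in the limma refit (adjusted p = 0.0160), and BEST4 (0.262), CA2 (0.0795), CA7 (0.538) and CA9 (0.0651) lost theirs by the same adjusted p.

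**Figure D4:**
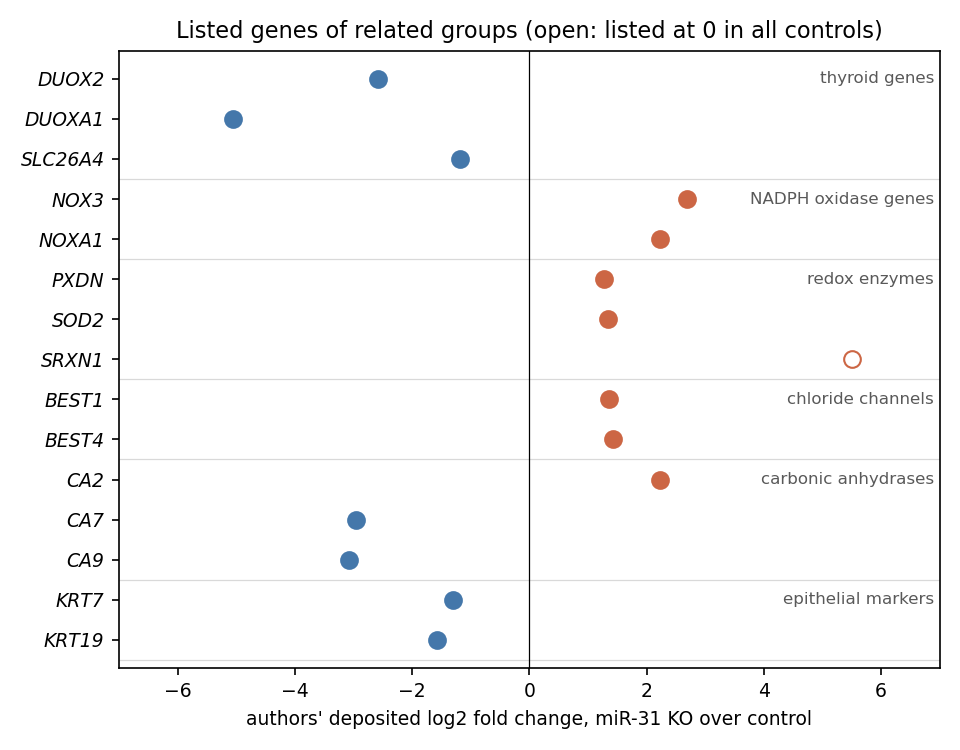
The authors' deposited log2 fold change, miR-31 KO over control (horizontal axis), of the listed genes in the related groups (vertical axis), blue for lower and orange for higher, with an open circle for a gene listed at 0 in all controls. The 3 thyroid genes are all below 0, while the other NADPH oxidase, redox and chloride channel genes in the table are all above 0.

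Epithelial and other cell type markers moved in the same comparison. Of 9 broad epithelial markers, 2 were listed, the keratin genes KRT7 and KRT19, both lower, and their summed level was 1104 to 1832 in control and 451 to 657 in KO. Of 9 fibroblast markers, PDGFRA and LUM were listed, both higher, summing to between 2.01 and 8.49 in control and between 26.7 and 42.5 in KO, with LUM at 0 in all controls. Of 8 leukocyte markers, ITGAM and CD3D were listed as higher, with sums of 5.62 to 20.03 in control and 21.9 to 97.7 in KO and CD3D at 0 in all controls. ITGAM itself overlapped between groups, with 5.62, 20.03 and 12.8 in control and 17.9, 22.4 and 92.6 in KO replicates 1, 2 and 3; its limma log2 fold change was 1.48 with an adjusted p of 1.00, and 0.76 without KO replicate 3. Of 7 endothelial markers, 3 were listed, with TIE1 and KDR higher and ERG lower, and sums of 1386 to 2232 and 4482 to 6158. In the limma refit KRT19, LUM, CD3D, TIE1 and ERG kept their calls, while KRT7, PDGFRA and KDR lost theirs, with adjusted p-values of 0.0862, 0.0826 and 0.0651. The part of these shifts in the fall of the thyroid genes was not tested.

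By pattern over the 6 libraries, DUOXA1 and SLC26A4 were closest to each other among the 3 genes, with a Pearson r of log2(value + 1) of 0.94, compared with 0.79 for DUOX2 and DUOXA1 and 0.63 for DUOX2 and SLC26A4. All of these values carry the group difference for which the genes were listed, so they are descriptions. Among 856 genes averaging 10 or more normalized counts in at least 1 group, those most like DUOX2 were the kinase gene SGK2 (r = 0.98), C12orf56 (r = 0.96) and RTBDN (r = 0.96), each highest in KO replicate 1 among the KO libraries, as DUOX2 was. Those most like DUOXA1 were HSPG2, the basement membrane proteoglycan perlecan, the kinesin gene KIFC2 and LOC105370849, each with r = 1.00 to 2 decimals. Pearson r takes no account of the size of a change. The authors' deposited log2 fold change was -1.11 for HSPG2, -1.04 for KIFC2 and -6.83 for LOC105370849, against -5.06 for DUOXA1. LOC105370849 had 674, 966 and 1019 normalized counts in the controls and 6.42, 11.4 and 5.07 in KO, in replicate order, with the order of KO libraries that DUOXA1 had. Those most like SLC26A4 were HSF4, a heat shock transcription factor gene, GPC1, a cell-surface proteoglycan gene, and TSPAN1, a tetraspanin gene, with r between 0.99 and 1.00. All 3 were lowest in replicate 1 among controls and highest in replicate 3 among KO libraries, as SLC26A4 was.

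The normalized counts of the 986 genes summed to between 545354 and 943360 per library, and full library depth is unknown. Each group held a close pair of libraries and a more distant library, control replicate 1 and miR-31 KO replicate 3. Without both of these, DUOXA1 had a limma log2 fold change of -4.48 with an adjusted p of 0.00712, SLC26A4 had -1.47 with an adjusted p of 0.0766, and DUOX2 had -2.88 with an adjusted p of 1.00. This set of 4 libraries called DUOXA1 of the 3, beside 20.4% of listed genes as lower; among genes averaging at least 50 normalized counts, of which SLC26A4 is the only member of the 3 and was not called, a refit called 22.5% as lower. Nothing in the labels ties the libraries to separate cultures, and p-values therefore reflect library-to-library spread that may be technical.

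**Figure D5:**
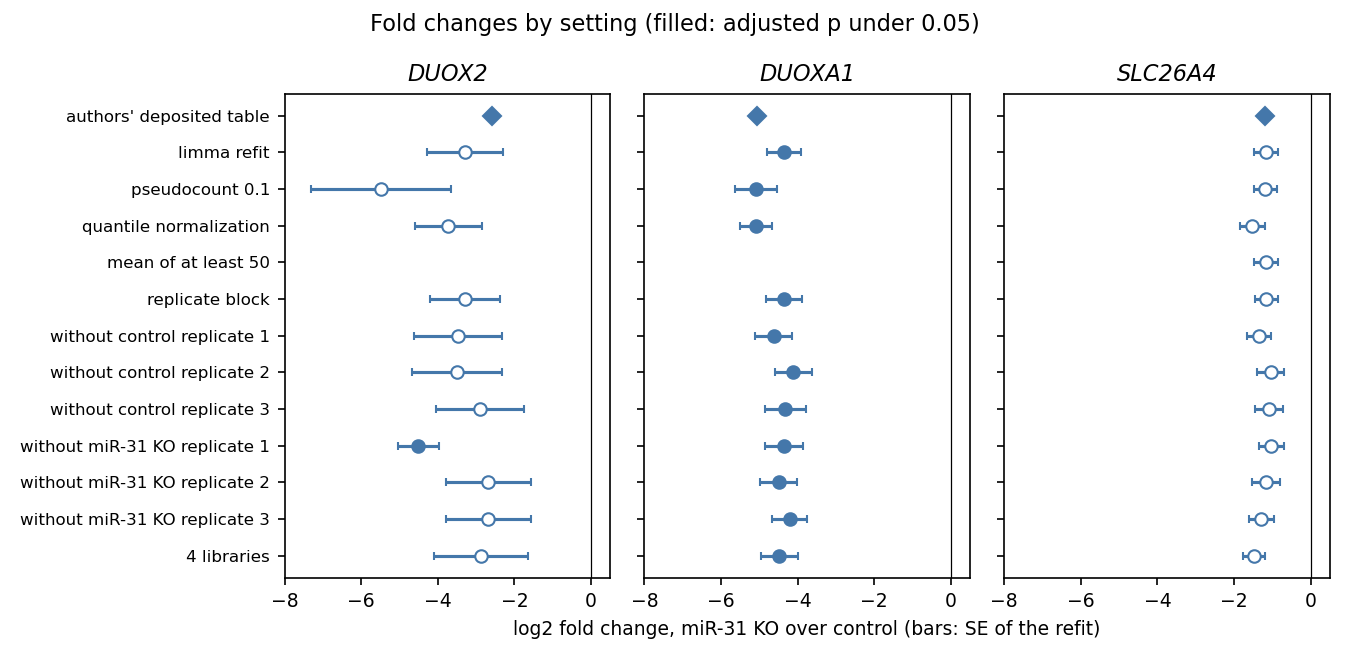
Log2 fold change, miR-31 KO over control (horizontal axis), of the 3 genes under each setting (vertical axis); the diamond is the authors' deposited value, circles are limma refits with SE bars, and filled symbols have an adjusted p under 0.05. All values are below 0; DUOXA1 is filled at every setting shown, SLC26A4 at the deposited value alone, and DUOX2 at the deposited value and without miR-31 KO replicate 1.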

How the data were processed

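Sample titles define the groups, 3 control and 3 miR-31 KO libraries of K1 RNA, although the series text speaks of duplicates. The tools named in the submitters' processing notes are HISAT, Bowtie2 and RSEM, with hg38 and hg19 as builds; their roles and versions, the normalization and the test were not given in the sources used here. The authors deposited a signal unit, normalized counts that are not whole numbers, together with a log2 fold change of KO over control. The deposited p-value and adjusted p-value columns imply 16806 tested genes by Benjamini-Hochberg adjustment. As the table is selected, the authors' deposited test is the main result.

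Refits used R 4.3.3 and limma 3.58.1, moderated with a mean trend, on log2(value + 1) of the 986 listed genes, adjusted over 16806 genes. They estimate the spread from selected genes. Genes outside the table counted in the adjustment but had no p-value to be ranked. A refit adjusted p can therefore exceed the deposited one at a similar p-value. The refit step was tested on simulated data in which most genes were unchanged and all entered the adjustment. The listed genes here were selected as changed, so that test cannot show how the step treats them. Other values were computed with Python 3.11.15, pandas 2.3.3, numpy 2.4.6 and scipy 1.17.1. Positions and transcripts come from GENCODE release 29, which matched all 3 genes and 966 listed symbols. Promoters of the 3 genes and the microRNA come from RefSeq. Named were the 3 genes, all listed members of the gene lists, the 3 most similar genes for each, and listed genes within 1 Mb. The result of 1 marker gene is not reported here. The genes and lists were chosen with earlier results of these data known. No paired analysis was taken as main, and same-numbered libraries are treated in the closing section.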

Additional observations from a re-analysis of the deposited data

How the results depend on the processing

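The sign was negative for the 3 genes under every alternative run. DUOXA1 kept its call in all 11 refits, with log2 fold changes of -5.09 to -4.11. DUOX2 lost its call in the limma refit (-3.29), with a pseudocount of 0.1 (-5.48), after quantile normalization (-3.72), with the replicate block (-3.29) and with the 4 closest libraries (-2.88), a set chosen after the data were seen. It ranged from -4.50 to -2.69 when each library was left out, and was past the threshold only without miR-31 KO replicate 1. SLC26A4 lost its call in all 12 refits, at -1.16 (refit, mean of at least 50 and replicate block), -1.18 (pseudocount 0.1), -1.52 (quantile) and -1.47 (4 libraries), and at -1.35 to -1.03 with a library left out. The adjusted p ranged from 0.0349 to 1.00 for DUOX2, from 0.000986 to 0.0335 for DUOXA1 and from 0.0636 to 0.521 for SLC26A4. The number of the 3 genes past the threshold was 3 in the deposited table and 1 in the refit. It was also 1 with the pseudocount of 0.1, quantile normalization, the replicate block and the 4 libraries. With each library left out in turn it was 1 to 2. It was 2 at an adjusted p under 0.01 and 2 at a log2 fold change of 2 or more. Refits ranked only listed genes in the adjustment over 16806 genes. Before adjustment the deposited and limma refit p-values were 0.00979 and 0.0103 for DUOX2, and 0.000344 and 0.00573 for SLC26A4. For DUOX2 after quantile normalization the limma p was 0.00279 and the adjusted p 0.0858. The share of lost calls that comes from the adjustment was not tested. After quantile normalization the median over listed genes moved by -0.52 on the log2 scale; relative to that shift the 3 genes had -3.20, -4.57 and -0.99 for DUOX2, DUOXA1 and SLC26A4. Deviations of same-numbered libraries correlated at 0.20, -0.13 and 0.15, and they were therefore not treated as pairs; the replicate block changed no call of the 3 genes relative to the refit without it. A mean of at least 50 left DUOX2 and DUOXA1 out, so no number of the 3 is given for it. For the other 30 named genes, 129 of 347 values kept their call, 218 lost it and 0 reversed. Depth is unknown, so whether it limits DUOX2 and DUOXA1 near 0 was not tested.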
